A study of Mus musculus with 29 samples.

Results

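Transcripts of 10 genes of the tumor necrosis factor (TNF) and NF-kB axis were followed across 7 groups of mice bearing a peritoneal dissemination of gastric cancer. The genes were chosen by symbol as 3 ligands (Tnf, Tnfsf11 and Tnfsf13b), 2 TNF receptors (Tnfrsf1a and Tnfrsf1b), 3 NF-kB subunits (Nfkb1, Nfkb2 and Relb) and 2 inhibitors of the pathway (Nfkbia and Tnfaip3). This choice was made with earlier results of these data known. All 10 of 10 were present among the 24421 genes of the count table. Their transcripts were lower in the 3 mice cured by dual ICI than in untreated mice at 5wk, with Tnf lowest against its controls, and they were higher in the 2 uncured mice than in the cured mice.

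Bulk RNA-seq was available for 29 mice. Every mouse was a female C57BL/6J animal of 5 to 6 weeks that received YTN16 cells, a transplantable gastric cancer line, into the peritoneal cavity on day 0. Untreated mice (5 at 3wk and 5 at 5wk) were given PBS. Anti-PD1 (10 mg/kg, 5 mice at 5wk), anti-CTLA4 (5 mg/kg, 4 mice at 5wk) or both antibodies together, called dual ICI (5 mice at 3wk and 5 at 5wk), were injected on days 5, 8 and 12, and also on days 21 and 28 in mice taken at 5wk. The 3wk and 5wk tissues were taken on days 21 and 35. The labels do not carry the outcome of dual ICI at 5wk: mice 1 and 5 were taken as uncured and mice 2, 3 and 4 as cured from the mouse numbers of the study, so the label-only comparison of all 5 is given as well. No group lacked tumor cell implantation, so there was no peritoneum of a tumor-free animal to set beside the cured mice.

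TNF is a cytokine made mainly by activated macrophages and T cells. It binds TNFR1, encoded by Tnfrsf1a and present on most cells, and TNFR2, encoded by Tnfrsf1b and found mainly on immune and endothelial cells. Receptor signaling frees NF-kB dimers, whose p50 subunit is made from Nfkb1, and NF-kB in turn switches on the genes of its own brakes, IkBalpha (Nfkbia) and A20 (Tnfaip3). A second arm of the pathway uses p52, made from Nfkb2, together with RelB, and responds to other ligands of the TNF superfamily, among them RANKL (Tnfsf11), known for its part in osteoclast and lymph node development, and BAFF (Tnfsf13b), the B cell survival factor.

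Libraries held between 25989217 and 31219650 counts. The tissue was stripped peritoneum that could carry nodules or not, although the labels call it tumor tissue. The summed level of 13 gastric epithelial genes (Gkn, Tff, keratin and related genes) was 1124 to 3836 CPM (reads scaled to a common library size by TMM) in untreated mice at 5wk and 3408 to 4157 in the uncured mice, but 20.1 to 96.7 in the cured mice. Of the 13, up to 5 genes were at 0 in a cured mouse and up to 3 in an untreated mouse at 5wk. Skeletal muscle genes took 19.9% to 21.3% of the counts in cured mice. A pair of libraries stood apart within their groups. Anti-PD1 mouse 5 had an epithelial sum of 61.4 CPM and a muscle share of 19.6%, and untreated 5wk mouse 2 had an epithelial sum of 1124 CPM and a muscle share of 19.5%.

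**Figure D1:**
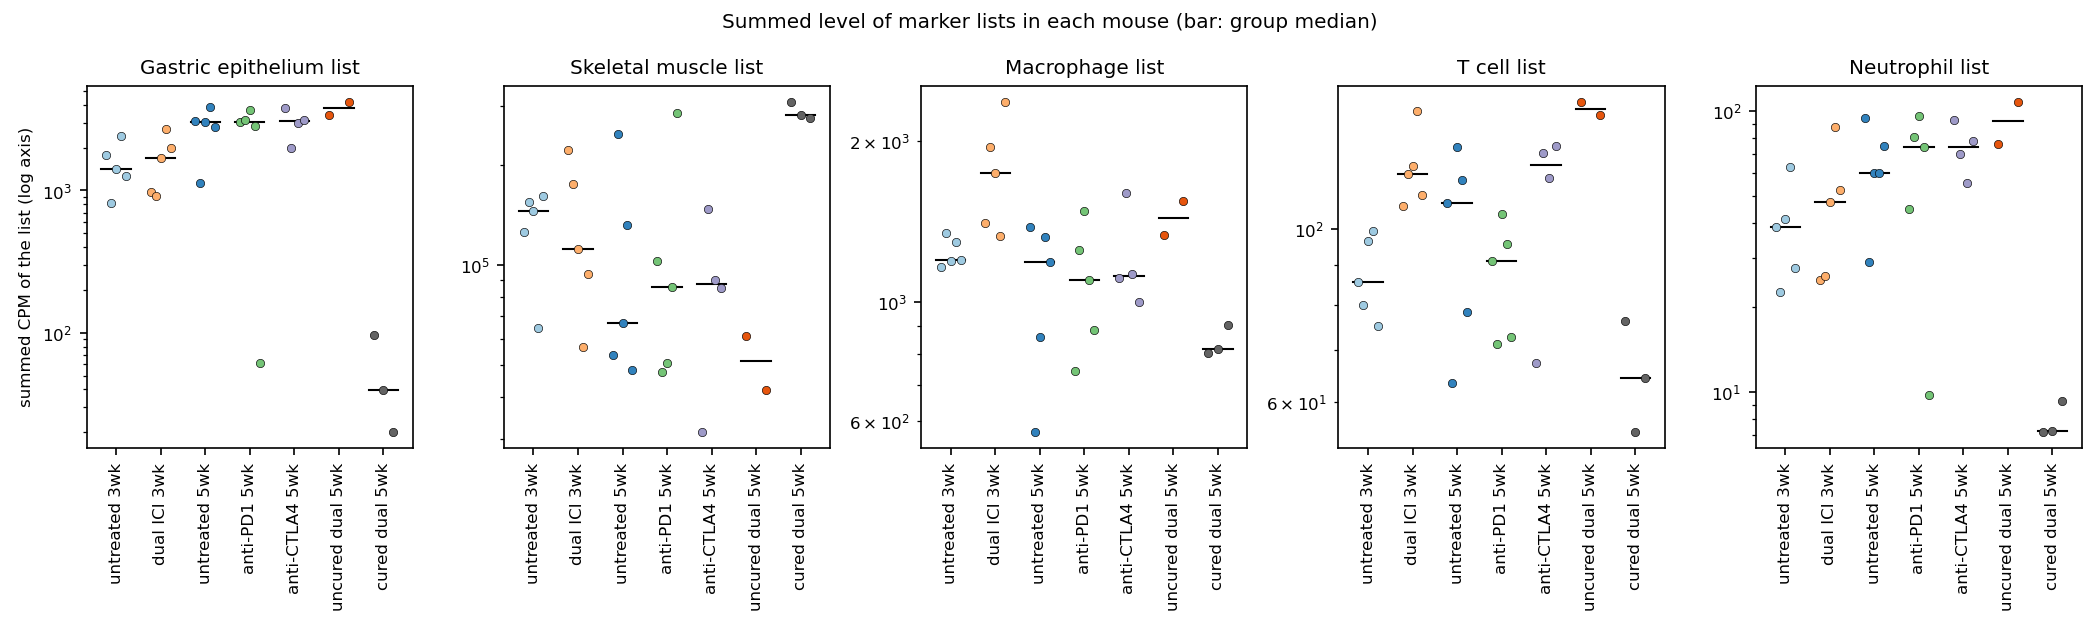
Summed CPM (TMM-scaled, log axis) of the marker genes of gastric epithelium, skeletal muscle, macrophages, T cells and neutrophils, with 1 point per mouse and a bar at the median of each of the 7 groups. The cured mice sit lowest for gastric epithelium, at 20.1 to 96.7 CPM apart from anti-PD1 mouse 5 at 61.4, and high for skeletal muscle.

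Sequence upstream of the genes was read from RefSeq promoter windows on GRCm38.p6 for 8 of the 10 genes; Nfkb1 and Relb had no entry. The windows reach from 250 bases before to 50 after a transcript start, and they were searched for the kappaB consensus on both strands, which 8.46% of all 32851 windows hold, and for TATAAA on the strand of the gene, which 8.32% hold. Matches to the kappaB consensus lay in windows of Nfkb2, Nfkbia and Tnfaip3 and in none of Tnf, Tnfrsf1a, Tnfrsf1b, Tnfsf11 and Tnfsf13b. The stretches below are shown because they belong to Tnf, the gene of the 10 with the largest fold change in cured mice, and to the genes with kappaB matches, with capitals marking TATAAA or the kappaB matches as they read on the strand of the gene.
Tnf, chr17:35202008-35202257, minus strand: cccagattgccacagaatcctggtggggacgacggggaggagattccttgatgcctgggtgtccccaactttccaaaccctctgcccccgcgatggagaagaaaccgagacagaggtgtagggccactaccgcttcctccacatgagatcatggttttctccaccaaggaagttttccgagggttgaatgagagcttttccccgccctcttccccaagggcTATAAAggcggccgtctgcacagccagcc
Nfkbia, chr12:55492648-55492897, minus strand: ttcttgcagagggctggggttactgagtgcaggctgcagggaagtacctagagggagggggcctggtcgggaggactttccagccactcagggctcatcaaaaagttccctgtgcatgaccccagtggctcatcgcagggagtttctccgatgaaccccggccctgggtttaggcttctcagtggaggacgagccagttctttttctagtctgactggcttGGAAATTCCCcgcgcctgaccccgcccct
Tnfaip3, chr10:19015411-19015547, minus strand: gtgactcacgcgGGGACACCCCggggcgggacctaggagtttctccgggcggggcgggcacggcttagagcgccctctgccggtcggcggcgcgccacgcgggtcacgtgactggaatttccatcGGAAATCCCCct
Nfkb2, chr19:46304693-46304712, plus strand: gtcacGGGAATTCCCCccct
Nfkb2, chr19:46304721-46304736, plus strand: cgaaaGGGGCTTTCCc
TATAAA began 29 bases before the start of Tnf. The kappaB match of Nfkbia began 29 bases before its start, and those of Tnfaip3 began 125 and 12 bases before its start. In the first Nfkb2 window, the matches on either strand began 39, 38 and 11 bases before the start, and those at 39 and 38 overlap. A match is a run of letters in the window, and binding was not measured here.

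The 10 genes are spread over 10 chromosomes: Tnf at chr17:35199381-35202007, Tnfsf11 at chr14:78277445-78308043, Tnfsf13b at chr8:10006467-10039072, Tnfrsf1a at chr6:125349362-125362484, Tnfrsf1b at chr4:145213463-145246870, Nfkb1 at chr3:135584655-135691547, Nfkb2 at chr19:46304320-46312385, Relb at chr7:19606217-19629438, Nfkbia at chr12:55489410-55492647 and Tnfaip3 at chr10:19000910-19015657 (GENCODE vM21, GRCm38). Nfkb2 overlaps Psd on the opposite strand, and whether reads were counted by strand is not given in the sources used here, so the Nfkb2 values may hold reads of its neighbor.

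Per kilobase of annotated exon, Tnfrsf1a and Nfkbia transcripts were the most abundant and ligand transcripts the least. In untreated mice at 5wk the median level was 82.3 CPM per kb for Tnfrsf1a and 42.7 for Nfkbia. Relb (25.8), Nfkb1 (25.2), Nfkb2 (21.5) and Tnfrsf1b (17.7 CPM per kb) followed with ranges over mice that overlapped. Tnfaip3 stood at 7.62 and Tnf at 5.03, again with overlapping ranges, followed by Tnfsf13b at 2.66 and Tnfsf11 at 0.327 CPM per kb. The cured mice kept Tnfrsf1a (40.8) and Nfkbia (28.8) on top, while Tnf stood at 0.327 and Tnfsf11 at 0.0660 CPM per kb.

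**Figure D2:**
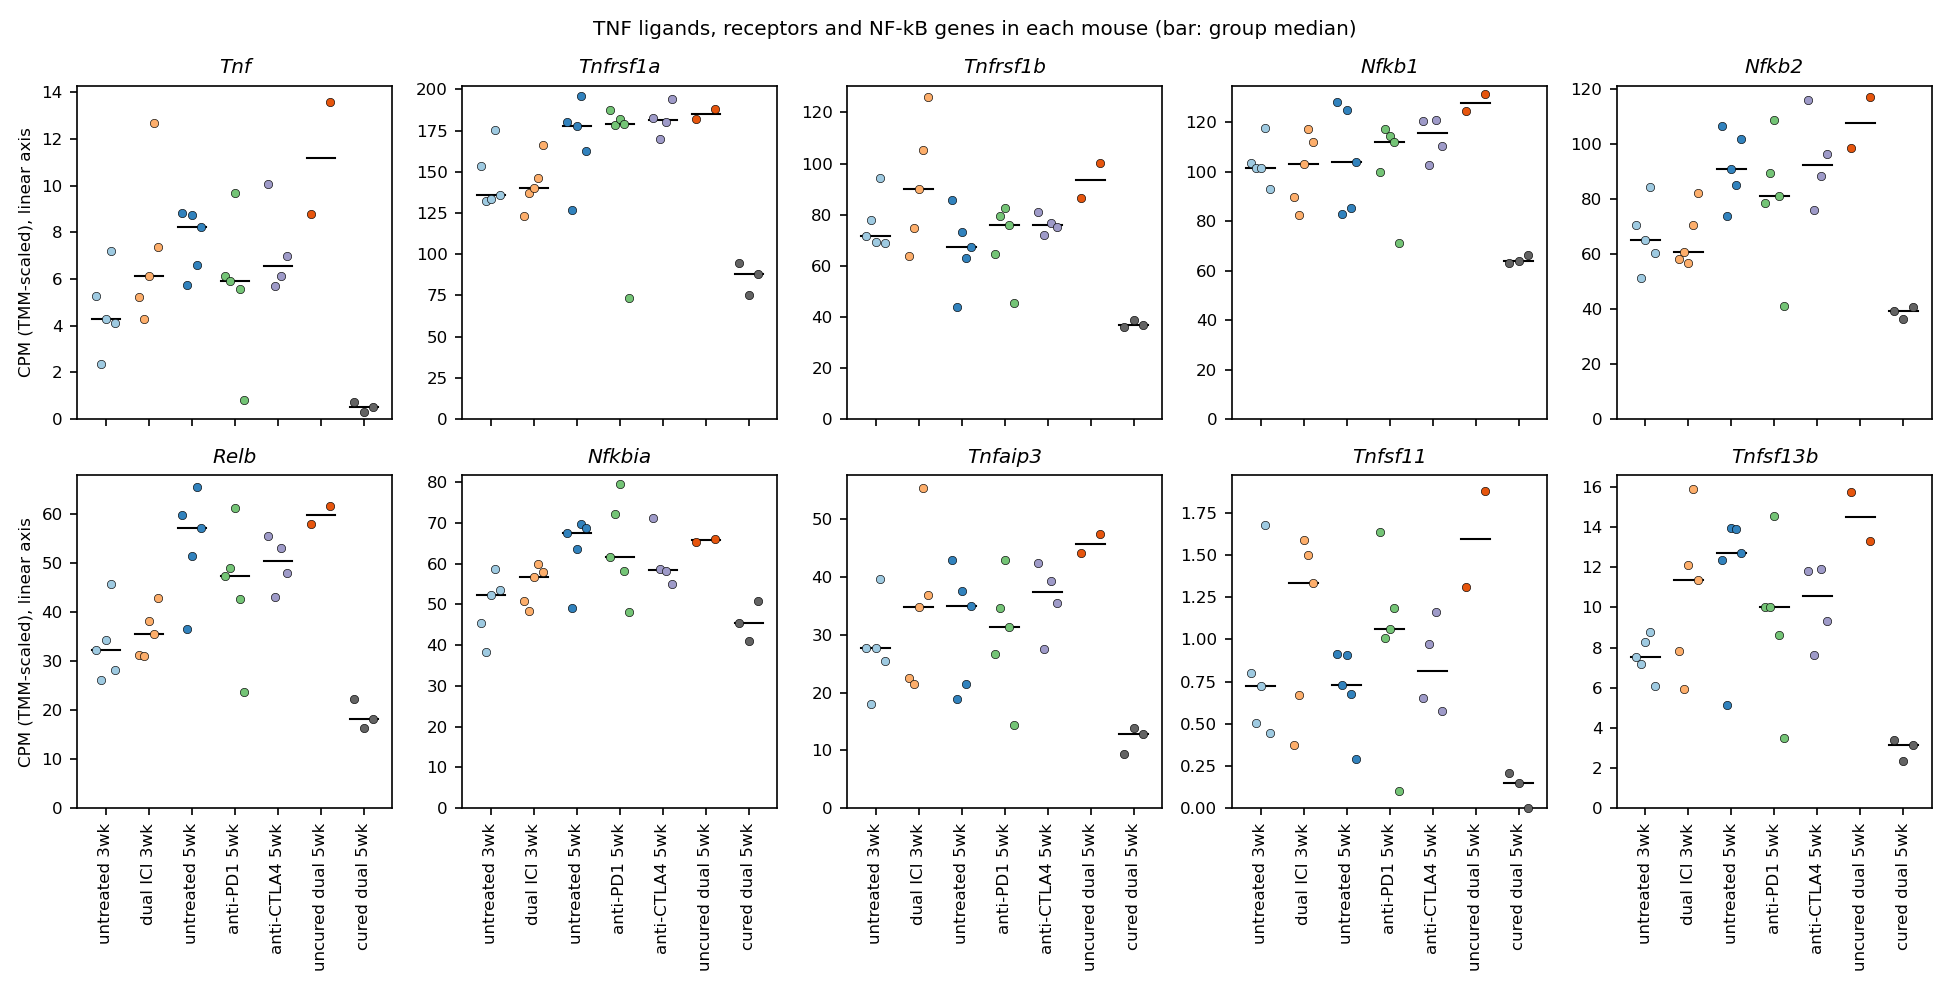
CPM (TMM-scaled, linear axis from 0) of each of the 10 genes, with 1 point per mouse in mouse order and a bar at the group median. In the cured group every gene has its lowest group median, and the low point among the anti-PD1 mice is mouse 5, with Tnf at 0.832 CPM against 5.58 to 9.67 in the other 4.

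Cured mice were compared with untreated mice at 5wk to describe the axis in peritoneum after tumor clearance. All 10 genes fell (10 of 10 at adjusted p under 0.05), where 44.7% of 15816 genes were called in either direction and 26.7% were called lower. The median log2 fold change was -1.29 over the 10 genes and -0.05 over all genes tested. The genes were chosen with earlier results of these data known, so these shares are a description. Tnfsf11 passed the low-count filter here only through the untreated mice, where it was higher, so its call is a description too. For 9 of the 10 genes the cured and untreated mice did not overlap, against 26.4% of all genes that lay wholly lower in cured mice; the exception was Nfkbia. In bulk tissue, fewer cells of a type and less RNA per cell cannot be told apart.

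Among the ligands, Tnf stood at 0.722, 0.295 and 0.537 CPM in cured mice 2, 3 and 4, from 14, 6 and 11 reads. Untreated mice 1 to 5 held 8.83, 5.72, 8.73, 6.6 and 8.24 CPM, and uncured mice 1 and 5 held 8.77 and 13.6 CPM. Every cured mouse was thus below every other mouse of the series, anti-PD1 mouse 5 (0.832 CPM, 16 reads) being the nearest. Tnf fell by 3.88 ± 0.33 on the log2 scale (SE; 14.7-fold, adjusted p = 0.000128, 3 cured against 5 untreated mice). Tnfsf13b read 3.40, 2.36 and 3.17 CPM in cured mice and 12.4, 5.12, 14.0, 13.9 and 12.7 CPM in untreated mice, a fold change of -1.95 ± 0.33 (adjusted p = 0.00176). RANKL transcripts were scarce everywhere. Tnfsf11 had 4, 3 and 0 reads in the cured mice and 32, 18, 31, 17 and 10 in untreated mice, with a fold change of -2.59 ± 0.73 (adjusted p = 0.0178). The call of Tnfsf11 was lost without cured mouse 3 (adjusted p = 0.0538).

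Both receptors fell less than the ligand Tnf in size of the estimate. Tnfrsf1a, the ubiquitous receptor, had 94.7, 75.2 and 88.0 CPM in cured mice and 180, 127, 177, 196 and 163 CPM in untreated mice, with a log2 fold change of -0.96 ± 0.18 (adjusted p = 0.00259). Tnfrsf1b, the receptor of immune and endothelial cells, had 35.9, 38.7 and 36.9 CPM in cured mice against 85.7, 43.8, 73.1, 62.9 and 67.4 CPM in untreated mice (-0.83 ± 0.20, adjusted p = 0.00838). Untreated mouse 2 was the nearest to the cured mice for both receptors.

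Of the NF-kB subunits, those of the second arm had the larger estimates. Relb was at 22.3, 16.4 and 18.2 CPM in cured mice and at 59.7, 36.5, 51.3, 65.4 and 57.1 CPM in untreated mice, a change of -1.50 ± 0.20 (adjusted p = 0.000483). Nfkb2 was at 39.1, 36.5 and 40.8 CPM against 106, 73.7, 90.8, 85.3 and 102 CPM (-1.23 ± 0.15, adjusted p = 0.000337). Nfkb1, the p50 precursor, was at 63.2, 63.9 and 66.4 CPM against 128, 82.7, 125, 85.4 and 104 CPM (-0.69 ± 0.18, adjusted p = 0.0130). The Nfkb1 call was lost without cured mouse 2 (adjusted p = 0.0553) or cured mouse 3 (adjusted p = 0.0541), and the difference in fold change between subunits was not tested.

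The inhibitors differed in how firmly they fell. Tnfaip3, which encodes the ubiquitin-editing enzyme A20, was at 9.43, 13.9 and 12.9 CPM in cured mice and at 43.0, 18.9, 37.6, 21.6 and 35.03 CPM in untreated mice (-1.36 ± 0.29, adjusted p = 0.00552). Nfkbia was at 45.5, 41.2 and 50.8 CPM in cured mice, with untreated mice at 67.4, 49.0, 63.7, 69.7 and 68.7 CPM, so that untreated mouse 2 lay among the cured mice. Its change was the smallest of the 10 (-0.47 ± 0.15, adjusted p = 0.0297), and the call was lost in 7 of 8 fits that each left out 1 mouse. Those were cured mice 2, 3 and 4 and untreated mice 1, 3, 4 and 5, and the adjusted p reached 0.129 without cured mouse 3.

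Markers of other cells moved with this comparison. Neutrophil genes, 6 of 7 of which are in the table, summed to 7.22 to 9.27 CPM in cured mice and 29.0 to 94.0 CPM in untreated mice at 5wk. The 8 T cell genes summed to 54.9 to 76.1 CPM against 63.4 to 127 CPM, an overlap, but their mean log2 CPM of 0.92 to 1.43 in cured mice was below the 1.73 to 2.56 of untreated mice without overlap. The 10 macrophage genes summed to 803 to 906 CPM against 572 to 1377 CPM, and the groups overlapped by either measure. The 4 endothelial genes went the other way, at 414 to 440 CPM in cured mice against 238 to 394 CPM in untreated mice. The 5 dendritic cell genes summed to 8.76 to 12.6 CPM against 12.7 to 19.2 CPM, lower without overlap. The part of epithelial, muscle, neutrophil, T cell, endothelial and dendritic cell content in the fall of the 10 genes was not tested. The muscle-rich libraries outside the cured group differed from each other, also in epithelial sum. It was 1124 CPM in untreated mouse 2 and 61.4 CPM in anti-PD1 mouse 5, the latter within the cured range of 20.1 to 96.7 CPM. The part of this difference was not tested. Untreated mouse 2, with a muscle share of 19.5%, held more than every cured mouse of 9 of the 10 genes, for example 5.72 CPM of Tnf, whereas anti-PD1 mouse 5, with 19.6%, had 0.832 CPM of Tnf, a Tnfrsf1a level below all cured mice and Tnfsf11 and Nfkbia levels within their range. Without untreated mouse 2, 10 of 10 genes were called lower, with a median of -1.39, while the calls over all genes went from 7067 of 15816 to 9388 of 15775.

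Uncured mice were set against cured mice within the dual ICI group to describe the axis by outcome. All 10 genes were higher in the uncured mice at adjusted p under 0.05 and without overlap of the groups. Tnfsf11 passed the low-count filter here only through the uncured mice, where it was higher, so its call is a description. This background was wide, since 70% of 15796 genes were called, 36.9% as higher, and 43.3% lay wholly higher in the uncured mice. The 10 genes had a median log2 fold change of 1.55, against 0.05 over all genes. The cured mice are the same as in the comparison above, so the 2 sets of values are not independent. Several marker sums moved with this comparison without overlap. Gastric epithelial genes stood at 3408 to 4157 CPM in the uncured mice against 20.1 to 96.7 CPM in the cured mice. Macrophage genes stood at 1331 and 1539 against 803 to 906 CPM. Neutrophil genes were at 76.5 and 107 against 7.22 to 9.27 CPM, and T cell genes at 145 and 140 against 54.9 to 76.1 CPM. Also higher were fibroblast (5715 to 7922 against 4247 to 4725 CPM), dendritic cell (22.5 to 23.1 against 8.76 to 12.6 CPM) and B cell genes (7.71 to 9.12 against 3.20 to 5.56 CPM). Endothelial (243 to 258 against 414 to 440 CPM) and adipocyte genes (77.3 to 99.2 against 244 to 343 CPM) were lower. Their part in the differences was not tested.

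Tnf differed the most between uncured and cured mice, by 4.43 ± 0.35 on the log2 scale (adjusted p = 7.65e-06), followed by Tnfsf11 at 3.77 ± 0.66 (adjusted p = 0.000910) and Tnfsf13b at 2.27 ± 0.20 (adjusted p = 1.64e-05). For RANKL this meant 41 and 69 reads in uncured mice 1 and 5 against 4, 3 and 0 in the cured mice. BAFF transcripts were at 15.8 and 13.3 CPM in the uncured mice. The inhibitor Tnfaip3 (44.1 and 47.4 CPM in uncured mice) was higher by 1.90 ± 0.16 and Nfkbia (65.3 and 66.2 CPM) by 0.51 ± 0.11. Among the subunits, Relb (58.0 and 61.6 CPM) was higher by 1.64 ± 0.13, Nfkb2 (98.5 and 117 CPM) by 1.46 ± 0.11 and Nfkb1 (124 and 131 CPM) by 0.97 ± 0.09. The receptors Tnfrsf1b (86.4 and 100.3 CPM) and Tnfrsf1a (182 and 188 CPM) were higher by 1.32 ± 0.10 and 1.09 ± 0.11. Leaving out any of the 5 mice kept 10 of 10 genes called, with Nfkbia at the highest adjusted p of 0.0199.

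**Figure D3:**
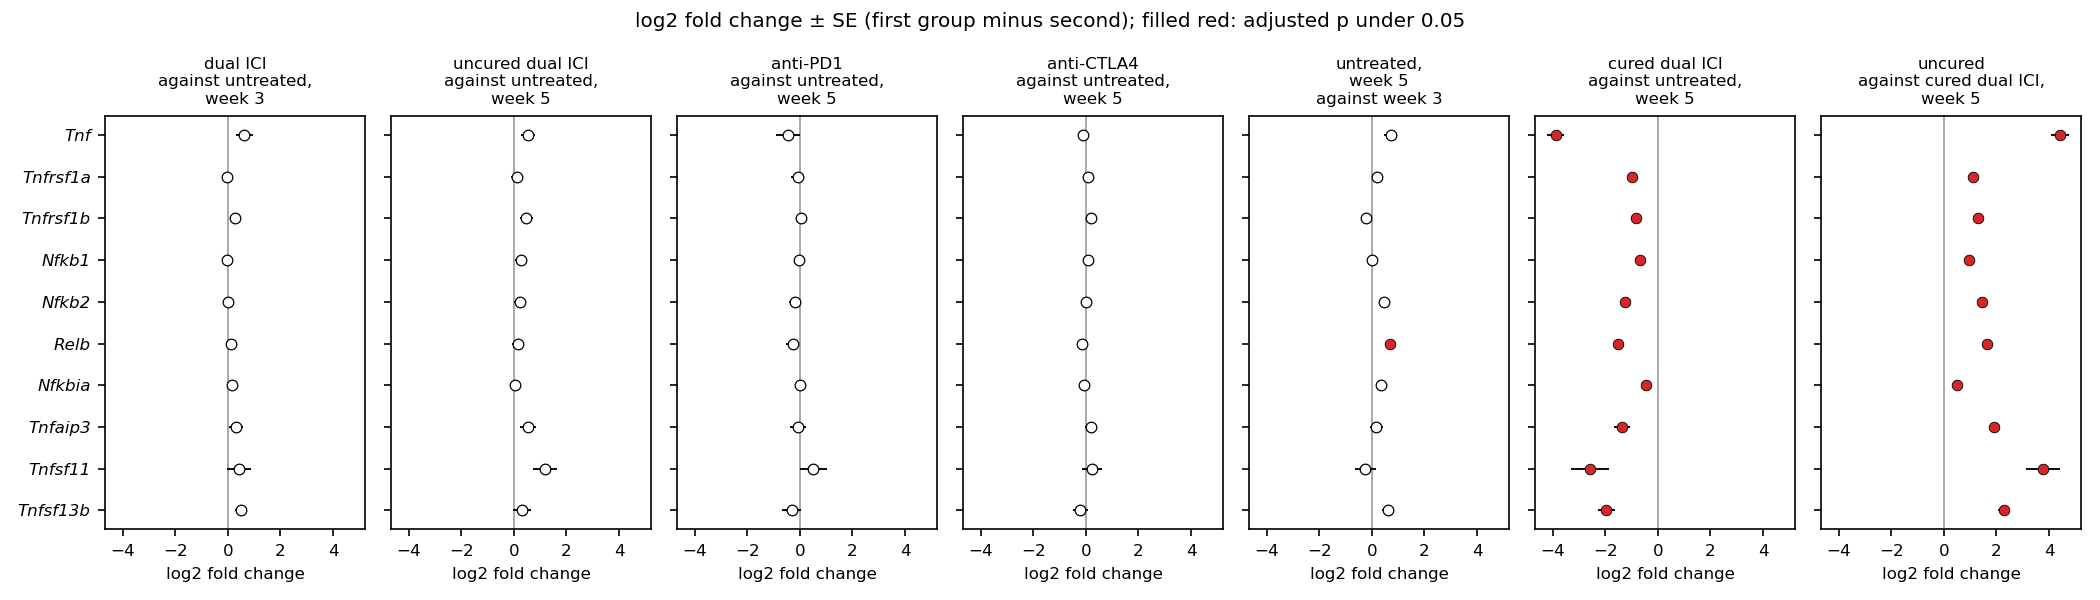
Log2 fold change (first group minus second) with its SE for the 10 genes in 7 comparisons, red where the adjusted p was under 0.05. All 10 genes are red in the 2 comparisons with cured mice, from -3.88 to -0.47 and from 0.51 to 4.43, and only Relb is red in the other 5.

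Other genes of the pathway were counted in 5 lists. In cured against untreated mice, 19 of 22 tested target genes of TNF and NF-kB were called, 16 lower and 3 higher, with a median of -2.03. The chemokine genes Cxcl5 (-8.07 ± 0.77, adjusted p = 0.000147) and Cxcl10 (-3.62 ± 0.31, adjusted p = 0.000128), the adhesion molecule gene Vcam1 (-3.70 ± 0.33, adjusted p = 0.000129) and Lcn2, encoding the neutrophil-associated lipocalin (-4.89 ± 0.43, adjusted p = 0.000130), had the smallest p-values among those that fell. Ccl20 was at 0 reads in all 3 cured mice and averaged 3.64 CPM in untreated mice, so that against a floor of 3 reads per library its log2 fold change was -4.61 or lower. Plau (1.25 ± 0.14), the urokinase gene, and Sod2 (1.68 ± 0.32), the gene of mitochondrial superoxide dismutase, rose.

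Further NF-kB subunits, inhibitors and kinases showed 7 of 13 genes lower and 0 higher, with a median of -0.65. Receptor adaptors and regulators had 10 of 25 lower and 1 higher (median -0.21). For the superfamily, 4 of 11 tested ligands were lower and 1 higher (median -0.66), and 7 of 21 tested receptors were lower and 4 higher (median -0.21). The receptor genes Relt (1.15 ± 0.16) and Ngfr (1.69 ± 0.26), the latter encoding the low-affinity nerve growth factor receptor, were among those that rose. Against the 26.7% of all genes called lower, the share was widest for the target genes. The lists were chosen with earlier results of these data known, and none was tested as a set.

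The same lists were counted in uncured against cured mice, where 36.9% of all genes were called higher and 70% in either direction. Target genes gave 17 of 22 higher and 3 lower (median 2.33), and further NF-kB genes 11 of 13 higher and 1 lower (median 0.71). Of the adaptors, 11 of 25 were higher and 3 lower (median 0.24), of the ligands 7 of 12 were higher and 2 lower (median 1.21), and of the receptors 12 of 22 were higher and 5 lower (median 0.64). Vcam1 (4.05 ± 0.13), Cxcl5 (8.42 ± 0.35), Tnfrsf11b, the gene of the RANKL decoy receptor (3.92 ± 0.17), and Tnip3, the gene of an A20-binding protein (4.26 ± 0.19), had the smallest p-values among those that were higher. Sod2 (-2.23 ± 0.11), Tab2 (-1.02 ± 0.09), Plau (-1.10 ± 0.10) and Relt (-1.0 ± 0.13) were lower in the uncured mice.

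**Figure D4:**
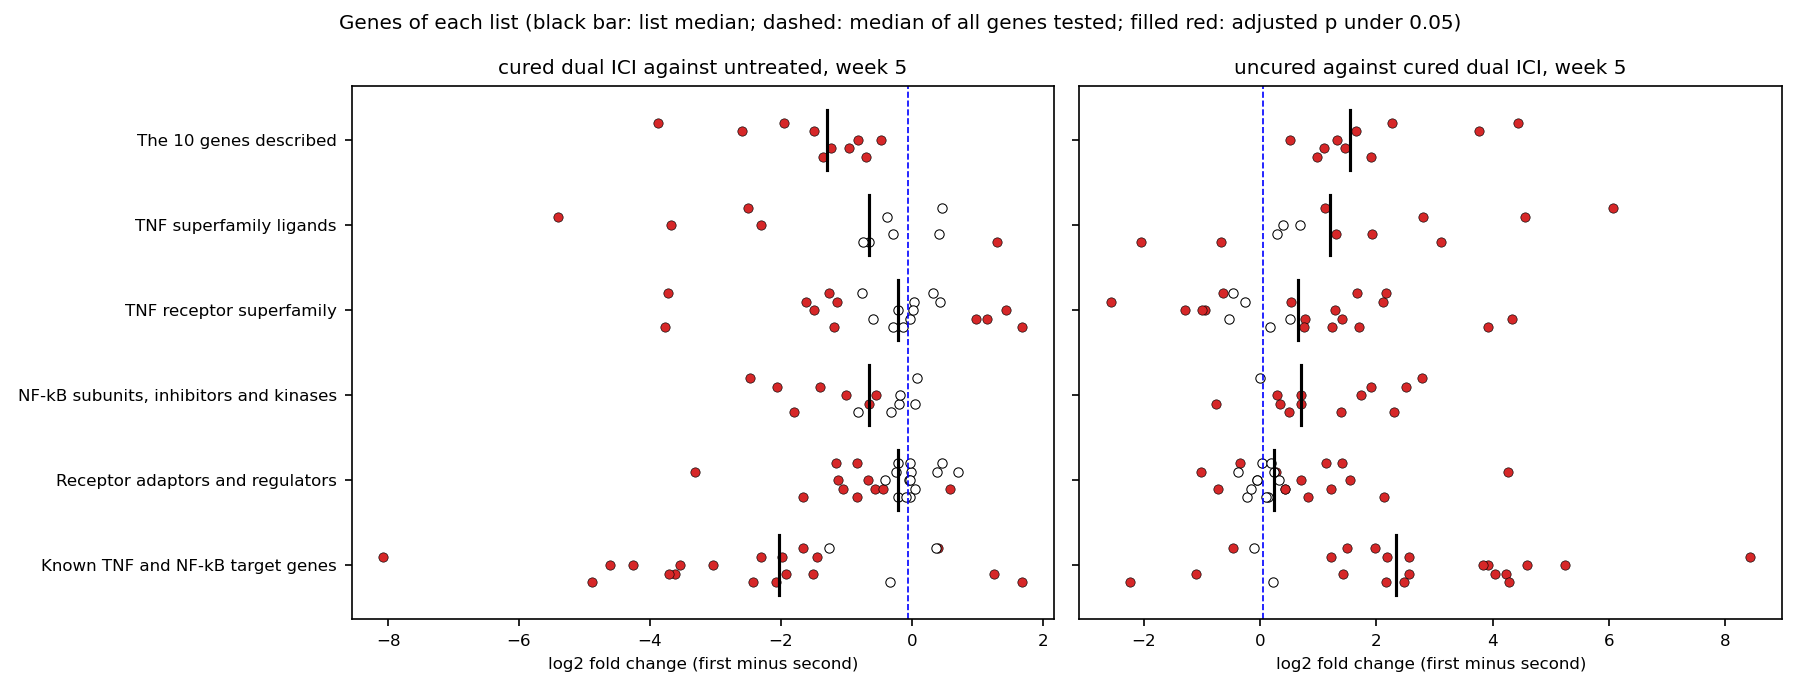
Log2 fold changes of the 10 genes and of the 5 lists in the 2 comparisons with cured mice, with 1 point per gene tested, red at adjusted p under 0.05, a black bar at each list median and a dashed line at the median of all genes (-0.05 and 0.05). The target genes lie farthest from that line, with medians of -2.03 and 2.33, and Ccl20 is drawn at its bound.

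Across all 5 groups at 5wk, 9 of 10 genes differed (35.3% of 16505 genes did), Nfkbia being the exception (adjusted p = 0.0835). The adjusted p lay between 0.00974 for Tnf and Relb and 0.0279 for Tnfsf11. Of the listed genes, Cxcl10 (adjusted p = 0.00223), Ltb (lymphotoxin beta, 0.00543), Bcl3 (an atypical IkB protein, 0.00974) and Ccl2 (a monocyte chemokine, 0.00974) had the smallest p-values. This result rested on the cured mice. Without cured mouse 2, 3 or 4 the count was 0 of 10 in each case, although 9 of 10 kept an unadjusted p under 0.05, and the calls over all genes went from 5830 to 22, 23 and 19. Without all 3 cured mice it was 0 of 10, with 0 at an unadjusted p under 0.05, and with anti-PD1 mouse 5 left out as well it was 0, with 1 at an unadjusted p under 0.05. With all cured mice kept, leaving out anti-PD1 mouse 5 or untreated mouse 2 gave 10 of 10, with 8704 and 7615 calls over all genes.

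Dual ICI was compared with no treatment at 3wk, the earlier of the time points. None of the 10 genes was called (0 of 10 by edgeR at an adjusted p under 0.05, 0 at an unadjusted p under 0.05, and 0 by DESeq2), where 0.574% of 15503 genes were called and 10.7% had an unadjusted p under 0.05. Tnf read 5.24, 4.28, 6.12, 12.7 and 7.37 CPM in dual ICI mice and 5.28, 2.36, 4.28, 7.21 and 4.11 CPM in untreated mice, a difference of 0.63 ± 0.34 (adjusted p = 0.560). Tnfsf13b read 7.84, 5.96, 12.1, 15.9 and 11.3 CPM against 7.55, 7.20, 8.27, 8.79 and 6.07 CPM (0.50 ± 0.24, adjusted p = 0.508). Dual ICI mice 4 and 5 were above every untreated mouse for Tnf, and mice 3, 4 and 5 were for Tnfsf13b, whereas the rest of the group was not, so the groups overlapped, as they did for the other 8 genes. Across all genes 1.9% lay wholly higher in dual ICI mice.

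The other 8 genes had log2 differences between -0.03 (Tnfrsf1a and Nfkb1) and 0.41 (Tnfsf11) at 3wk. Dual ICI mice 4 and 5 had the highest levels of Tnfrsf1b (105 and 126 CPM). Macrophage genes summed to 1330 to 2356 CPM in dual ICI mice and 1164 to 1347 CPM in untreated mice, and T cell genes to 107 to 142 CPM against 75.1 to 99.6 CPM without overlap. Of the pathway lists a single gene was called, the target gene Ccl5, a T cell and macrophage chemokine, at 18.1 CPM on average against 3.58 CPM (2.35 ± 0.28, adjusted p = 0.00681).

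The uncured mice did not differ from untreated mice at 5wk past the threshold for any of the 10 genes (0 of 10 by edgeR and by DESeq2), and 0% of 16156 genes were called at all. At an unadjusted p under 0.05 there was 1 of 10, where 4.87% of all genes had one. That gene was Tnfsf11, at 1.31 and 1.88 CPM in the uncured mice and 0.914, 0.731, 0.908, 0.676 and 0.293 CPM in untreated mice (1.18 ± 0.45, adjusted p = 0.734 by edgeR). All 10 fold changes were above 0, with a median of 0.30 against -0.01 over all genes, and the share of all genes above 0 was not counted. The 10 genes also varied together between mice, so their signs are not independent. Pearson's r of log2 CPM about the group means ran from 0.35 (Nfkbia and Tnfsf11) to 0.90 (Nfkb1 and Tnfaip3). Tnfsf11, Tnfaip3 (0.54 ± 0.31) and Tnfrsf1b (0.48 ± 0.24) lay wholly higher in the uncured mice, 3 of 10 against 9.19% of all genes. Tnf was at 8.77 and 13.6 CPM, the first of which lay inside the untreated range of 5.72 to 8.83 CPM (0.55 ± 0.26, adjusted p = 0.734).

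T cell genes summed to 140 and 145 CPM in the uncured mice, above the 63.4 to 127 CPM of untreated mice. Dendritic cell genes were wholly higher as well, at 22.5 to 23.1 CPM against 12.7 to 19.2 CPM. Of the list genes without overlap, Fasl, the T cell death ligand (1.58 ± 0.49), and Cd27, a costimulatory receptor (1.41 ± 0.48), had the largest fold changes, both at an adjusted p of 0.734. Without untreated mouse 2, the median over the 10 genes was 0.19 and Nfkbia turned to -0.03.

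The effect of dual ICI in uncured mice at 5wk was compared with that at 3wk by an interaction term. None of the 10 genes was called (0 by edgeR, 0 by DESeq2, 0 at an unadjusted p under 0.05), where 0% of 16542 genes were called and 6.35% had an unadjusted p under 0.05. The interaction ranged from -0.17 ± 0.44 for Tnfsf13b to 0.78 ± 0.70 for Tnfsf11, and Tnf was at -0.07 ± 0.49. These SEs are large against the differences, so the 2 time points were not shown to act alike.

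Under anti-PD1 alone 0 of 10 genes were called (0 by DESeq2 and 0 at an unadjusted p under 0.05), where 0% of 15640 genes were called and 1.31% had an unadjusted p under 0.05. The log2 fold changes ran from -0.44 ± 0.45 for Tnf to 0.52 ± 0.53 for Tnfsf11. Anti-PD1 mouse 5 had the lowest level of its group for 10 of 10 genes, with Tnf at 0.832 CPM, Relb at 23.6 against 42.6 to 61.2 CPM, and Tnfsf11 at 2 reads. Its Tnfrsf1a level was below those of all cured mice and its Tnfsf11 level was within their range. The labels give no outcome for the anti-PD1 mice. The study describes a cured mouse under anti-PD1 without giving its library, so the group may mix outcomes and its fold changes are those of the whole group. Without mouse 5 the fold changes ran from -0.17 to 0.78, and 0 genes were called, with 1 at an unadjusted p under 0.05.

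Under anti-CTLA4 alone 0 of 10 genes were called (0 by DESeq2 and 0 at an unadjusted p under 0.05), where 0% of 15781 genes were called and 0.811% had an unadjusted p under 0.05. Tnf was at 10.1, 5.71, 6.14 and 6.97 CPM in the 4 mice, around the untreated range. The fold changes ran from -0.20 ± 0.27 for Tnfsf13b to 0.24 ± 0.38 for Tnfsf11. Among the lists, Tnfsf18, the ligand of GITR, was the gene without overlap (0.58 ± 0.20, adjusted p = 1.00).

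Grouped by label alone, the 5 dual ICI mice at 5wk did not differ from untreated mice in any of the 10 genes (0 of 10 by edgeR and by DESeq2, 0 at an unadjusted p under 0.05, where 0% of 15588 genes were called and 6.87% had an unadjusted p under 0.05). The estimate for Tnf was -0.68 ± 0.91, an SE wider than in the split groups, since the 5 mice held 8.77, 0.722, 0.295, 0.537 and 13.6 CPM. Ngfr (1.49 ± 0.27) and Tnfrsf13c, the BAFF receptor (1.32 ± 0.36), lay wholly higher in the dual ICI mice, both at an adjusted p of 0.634.

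From 3wk to 5wk in untreated mice, 1 of 10 genes rose (6.24% of 15604 genes were called higher and 10.8% in either direction). Relb, the partner of p52, read 32.3, 26.2, 34.2, 45.6 and 28.2 CPM at 3wk and 59.7, 36.5, 51.3, 65.4 and 57.1 CPM at 5wk, and mouse 2 at 5wk lay inside the 3wk range (0.70 ± 0.18, adjusted p = 0.0314). At an unadjusted p under 0.05 there were 5 of 10 genes, against 30.1% of all genes. Beside Relb these were Tnf (0.71 ± 0.26, adjusted p = 0.0892), Nfkb2 (0.47 ± 0.14, adjusted p = 0.0574), Nfkbia (0.36 ± 0.14, adjusted p = 0.102) and Tnfsf13b (0.61 ± 0.24, adjusted p = 0.113).

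The call of Relb over time was lost without any of 7 mice (5wk mice 1, 4 and 5 and 3wk mice 1, 2, 3 and 5), with an adjusted p of 0.0610 to 0.0835. Without 5wk mouse 2, the muscle-rich library, 5 of 10 genes were called higher, but the calls over all genes also went from 1687 of 15604 to 4915 of 15746. Without 3wk mouse 4 there were 3 of 10, with 1614 calls over all genes. DESeq2 called 3168 genes in all and 3 of the 10, Relb, Tnf (adjusted p = 0.0448) and Nfkb2 (adjusted p = 0.0267). Of the pathway lists, 6 of 22 target genes were called, all higher, where 6.24% of all genes were called higher. Among them were Lcn2 (1.76 ± 0.29, adjusted p = 0.00633) and Saa3, an acute-phase protein gene (2.5 ± 0.48, adjusted p = 0.0123). Tnip1 (0.57 ± 0.11, adjusted p = 0.0130), an A20-binding inhibitor, and Tnfrsf12a (0.80 ± 0.17, adjusted p = 0.0176), the TWEAK receptor, rose as well, while Relt (-0.63 ± 0.18, adjusted p = 0.0464) and Ngfr (-0.80 ± 0.23, adjusted p = 0.0484) fell. The epithelial sum was 822 to 2428 CPM at 3wk and 1124 to 3836 CPM at 5wk, an overlap. Fibroblast genes summed to 7979.8 to 12188.5 CPM at 3wk and 4278.8 to 7269.4 CPM at 5wk, lower at 5wk without overlap. The other marker sums overlapped between the days. The part of tissue content in the changes over time was not tested. The library names of the 2 days come from separate number series, so day and that series cannot be told apart.

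Ordered by group median, the 2 uncured mice came first for 9 of the 10 genes and the cured mice last for all 10. The share of all genes with such an order was not computed. Across all genes, 26.4% lay wholly lower in cured than in untreated mice at 5wk, and 43.3% wholly higher in uncured than in cured mice. For Nfkbia untreated 5wk mice came first. Neighboring groups in this order overlapped, except that the uncured mice lay above the anti-CTLA4 mice for Nfkb1 and Tnfaip3, whereas the step down to the cured mice was free of overlap with the next group for each gene but Nfkbia. Over the 26 mice outside the cured group, 0 reached down to the cured range for Tnf, Tnfrsf1b, Nfkb1, Nfkb2, Relb, Tnfaip3 and Tnfsf13b, 1 did for Tnfrsf1a and for Tnfsf11, and 6 did for Nfkbia. Of the genes with 0, anti-PD1 mouse 5 was the nearest to the cured mice except for Tnfrsf1b. Its Nfkb2 was at 40.9 CPM against at most 40.8 CPM in cured mice, and its Nfkb1 at 71.4 against 66.4 CPM.

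The genes with the pattern most like each of the 10 were named by Pearson's r of log2 CPM over the 29 libraries, as a description without a test, since libraries share groups and 4 of them (the cured mice and anti-PD1 mouse 5) lie apart. Tnf was most like Cks2 (r = 0.98), AA467197 (0.98) and Kifc1 (0.98), and without those 4 libraries the values were 0.86, 0.87 and 0.85. Tnfsf11 was most like Ckap2l (0.92), Kif14 (0.91) and Prc1 (0.91), which dropped to 0.70, 0.76 and 0.69. Tnfsf13b was closest to Eef1a1 (0.96), Casp1 (0.96) and Ifngr1 (0.96).
For the receptors, genes close to Tnfrsf1a were Ppap2c (0.97) and Cyb561 (0.97), and Tnfrsf1b was closest to Ptprj (0.97), Ifnar1 (0.96) and Apobec1 (0.96). Ptprj remained at 0.97 without the 4 libraries.
Nfkb2 was closest to Plod3 (0.98), Src (0.97) and Traf4 (0.97), Relb to Pafah1b3 (0.97), Coro1b (0.97) and Stap2 (0.96), and Nfkb1 to Arf3 (0.97), Mon1b (0.97) and Prkci (0.97).
Tnfaip3 was closest to Ankib1 (0.98), Casp2 (0.97) and Ppip5k2 (0.97). Nfkbia was closest to Slc7a6os (0.91), Tspan8 (0.90) and Rad51d (0.89), the lowest values of the 10 over 29 libraries, but without the 4 libraries it kept 0.89, 0.88 and 0.88 and Tnfsf11 had the lowest values.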

How the data were processed

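Bulk RNA-seq of peritoneum from 29 mice was analysed. The deposited values are raw read counts per gene, as the authors made them, with 1 column per library for 24421 genes and no normalization; 0 other sample columns were present. The submitters' processing notes name STAR (2.7.0f), featureCounts (1.6.4) and mm10, whereas the study's methods name a different counting tool, so which one made the table is uncertain, and annotation and strand setting are not given in the sources used here. Depth was 25989217 to 31219650 counts per library, and p-values measure the spread between mice of a group.

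Counts were tested with edgeR (4.0.16, R 4.3.3): TMM scaling, filterByExpr by group, and quasi-likelihood F tests on the groups compared, with p-values adjusted by the Benjamini-Hochberg method across every gene of a fit and a threshold of 0.05. All 10 genes passed the filter in each comparison. Cured mice had 0 to 4 reads of Tnfsf11. In cured against untreated and uncured against cured mice it therefore passed only through the group where it was higher. Fold changes are unshrunk log2 values, and the SE was taken from the fold change and its F value. Levels are CPM on TMM-scaled library sizes over all 29 libraries, with a prior count of 2 in log2 CPM. Exon lengths came from GENCODE vM21. The fits were tested on simulated data in which few genes changed, so that test does not cover the wide changes in the comparisons with cured mice. Groups followed the labels, except that the outcome of dual ICI at 5wk came from the study's text.

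The 10 genes, the pathway lists and the markers were chosen with earlier results of these data known. Named list genes were up to 4 per direction with the smallest adjusted p, or else the 2 without group overlap with the largest fold change, and Ccl20 was named after its values were seen. Alternatives were DESeq2 (1.42.0), upper-quartile scaling, no low-count filter, all libraries in 1 fit, skeletal muscle genes left out, each mouse left out and the mouse number as a replicate block. A pair of further alternatives, without the cured mice in the comparison of 5 groups, was added after seeing the data. The comparisons at 5wk share the untreated mice and are not independent. For each of the 10 genes the 3 genes with the highest Pearson r were named, except 1 that is not reported here.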

Additional observations from a re-analysis of the deposited data

Results flagged for a closer look

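In groups of 4 or 5 mice, 50 sets of values (the 10 genes in each such group) were examined for 1 mouse far from the others by Dixon's criterion, which chance meets in about 1 in 20 sets, and 2 were found. Tnfrsf1a was at 73.2 CPM in anti-PD1 mouse 5, against 178 to 188 CPM in the other anti-PD1 mice. Tnfsf13b was at 5.12 CPM in untreated 5wk mouse 2, against 12.4 to 14.0 CPM in the other untreated mice. Both libraries were rich in skeletal muscle transcripts (19.6% and 19.5% of counts), and the part of tissue content in these values was not tested. None of the 10 genes was called by the interaction test, which set dual ICI at 3wk against the uncured mice alone at 5wk. The SEs were large, so a like response at both times was not shown.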

How the results depend on the processing

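The counts of called genes kept to within 1.5 times of the reported ones under every alternative outside leave-outs, except that DESeq2 called 3 of 10 from 3wk to 5wk, and the comparison of 5 groups gave 0 without the cured mice and 0 without these and anti-PD1 mouse 5. Leaving out 1 mouse gave 7 to 10 called genes for cured against untreated mice, 0 to 5 from 3wk to 5wk, 0 to 10 for the 5 groups, 10 for uncured against cured mice and 0 elsewhere. The causes were not tested. Over all genes, DESeq2 called 502 in place of 89 at 3wk, 3168 in place of 1687 from 3wk to 5wk, 17 in place of 0 for uncured mice, 46 in place of 0 for all dual ICI mice and 1 in place of 0 for the interaction.

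Mice with the same number in the labels did not deviate together throughout. The correlations ran from -0.22 to 0.56 at 3wk and from -0.65 to 0.70 in the other comparisons. For most 3wk dual ICI mice the library names carry other numbers. No steady pairing by number was seen, but such correlations cannot exclude one. With the replicate block, cured against untreated mice gave 7 of 10 genes, with Tnfrsf1b (adjusted p = 0.0682), Nfkb1 (0.134) and Nfkbia (0.239) not called by edgeR, and the all-gene counts were 4016 in place of 7067, 209 in place of 89 at 3wk, and 2247 in place of 5830 for the 5 groups. The block turned Nfkbia in uncured mice to -0.048, Nfkbia under anti-PD1 to -0.0064 (upper-quartile scaling to -0.0053) and Tnfsf11 in all dual ICI mice to -0.84.

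Log2 values that changed sign when 1 mouse was left out, none of them called, ranged as follows. At 3wk, Tnfrsf1a went from -0.095 to 0.034, Nfkb1 from -0.10 to 0.039 and Nfkb2 from -0.10 to 0.085. Nfkbia in uncured mice went from -0.034 to 0.070. Under anti-PD1, Tnfrsf1a went from -0.16 to 0.098, Tnfrsf1b from -0.052 to 0.18, Nfkb1 from -0.10 to 0.068, Nfkbia from -0.083 to 0.084 and Tnfaip3 from -0.22 to 0.11. Under anti-CTLA4, Tnf went from -0.29 to 0.0024 and Nfkb2 from -0.089 to 0.11. Tnfsf11 in all dual ICI mice went from -0.71 to 0.35. From 3wk to 5wk, Nfkb1 went from -0.053 to 0.086 and Tnfsf11 from -0.40 to 0.17. For the interaction, Tnf went from -0.42 to 0.24, Relb from -0.095 to 0.12 and Tnfsf13b from -0.37 to 0.021. Outside leave-outs, 583 values of single genes kept direction and side of the threshold, 21 lost the call (9 and 9 of them without the cured mice in the 5 groups, 3 with the block), 2 gained it and 4 changed sign. Depth limits Tnfsf11 the most, with 0 to 4 reads per cured mouse.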
